A study of Mus musculus with 10 samples.

Results

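The genes examined were 10 transcriptional regulators of oxidative metabolism in brown fat. They comprised the peroxisome proliferator-activated receptors Ppara, Pparg and Ppard, their dimer partner Rxra, the estrogen-related receptors Esrra, Esrrb and Esrrg, the coactivators Ppargc1a and Ppargc1b (PGC-1α and PGC-1β) and the corepressor Nrip1. They were chosen by name. All 10 were found among the 54347 gene records of the count table, and all 10 passed the filter on low counts that left 13732 genes to be tested.

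PolyA RNA had been sequenced from interscapular brown adipose tissue (iBAT) of 10 mice of the C57BL/6N background. Of these, 5 were ΔGm15551 mice, in which CRISPR/Cas9 had removed exon 1 of the lncRNA gene Gm15551, and 5 were wild type litter mates. The deletion is carried by the whole animal and is not limited to fat, it is a single knockout line, and the line had been backcrossed to wild type. All mice of both groups were 12 weeks old and had been kept alone at 4 °C for 24 h, so that no warm group was compared here and every comparison is between genotypes in the cold.

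The receptors of the PPAR family bind DNA together with retinoid X receptors and switch on genes of lipid storage and fat burning when a lipid ligand is bound. PGC-1α and PGC-1β bind no DNA themselves and act through such receptors, above all through the estrogen-related receptors, which drive genes of the respiratory chain and the citric acid cycle. In brown fat, cold acts through noradrenaline, cAMP and CREB to raise Ppargc1a, PPARγ is needed for the fat cell itself, and NRIP1 (RIP140) restrains the oxidative programme.

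Before the regulators were compared, the libraries were checked. The targeted gene Gm15551 had 0 counts in all 5 ΔGm15551 mice, while wild type replicates 2, 3, 5, 6 and 7 had 1, 2, 6, 7 and 0 counts. Depth lay between 9680976 and 15771170 counts per mouse, and wild type replicate 7 had the least. All 8 brown adipocyte markers were counted in every mouse, with summed levels of 26003 to 30363 CPM (read counts scaled to a common library size) in ΔGm15551 and of 24927 to 29047 CPM in wild type. Skeletal muscle genes were uneven, with 6 to 10 of the 10 markers counted and summed levels of 1.58 to 1573 CPM in ΔGm15551 and of 3.61 to 2581 CPM in wild type. The share of all counts held by these 10 markers is called the muscle share here. It was highest in wild type replicate 7 (0.258%), ΔGm15551 replicate 4 (0.157%) and ΔGm15551 replicate 1 (0.0743%). Wild type replicates 5, 6 and 7 carried mouse ID numbers from a higher series than the other 7 mice, and this series held no ΔGm15551 mouse. In bulk tissue, fewer cells of a type and less RNA per cell cannot be told apart.

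None of the 10 regulators passed the test for a difference between ΔGm15551 and wild type iBAT. With p-values of edgeR's quasi-likelihood test adjusted by Benjamini-Hochberg and a threshold of 0.05, 0 of the 10 were called, against 0% of all 13732 genes tested. At an unadjusted p under 0.05, 0 of the 10 passed, against 1.59% of all genes (219 genes, of which 132 were higher and 87 lower in ΔGm15551). For 0 of the 10 did the 5 mice of a genotype lie all above or all below the 5 of the other, a pattern shown by 0.32% of all genes. The adjusted p was 0.99981 for each of the 10, and the unadjusted p ran from 0.080 (Nrip1) to 0.812 (Ppargc1a). The log2 fold change of ΔGm15551 over wild type (log2FC) lay between -0.42 for Esrrb and 0.33 for Nrip1, with 7 values above 0 and 3 below. Its median was 0.053 over the 10 regulators and -0.00087 over all genes tested.

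**Figure D1:**
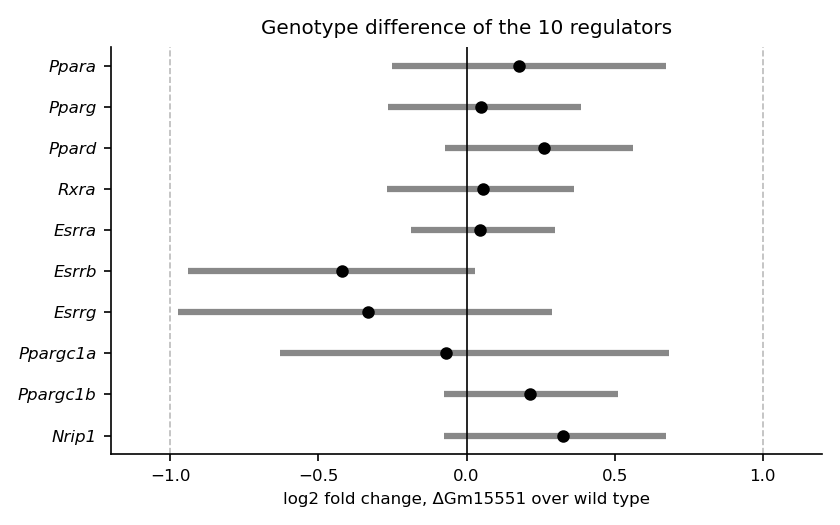
The black points are the log2FC of each regulator (edgeR, ΔGm15551 over wild type, 5 mice each) and the grey bars its 95% confidence interval from limma-voom. Every bar crosses 0 and stays within the dashed lines at a 2-fold change in either direction, from -0.97 for the lower end of Esrrg to 0.68 for the upper end of Ppargc1a.

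Which sizes of change these data leave possible was read from the 95% confidence intervals of limma-voom. For all 10 regulators the interval lay within a 2-fold change in either direction, as it did for 12358 of the 13732 genes tested (90.0%). The narrowest was that of Esrra, from -0.19 to 0.30 on the log2 scale. The widest were those of Ppargc1a, from -0.63 to 0.68, and Esrrg, from -0.97 to 0.29, so that changes of these sizes were not excluded with 5 mice per genotype.

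**Figure D2:**
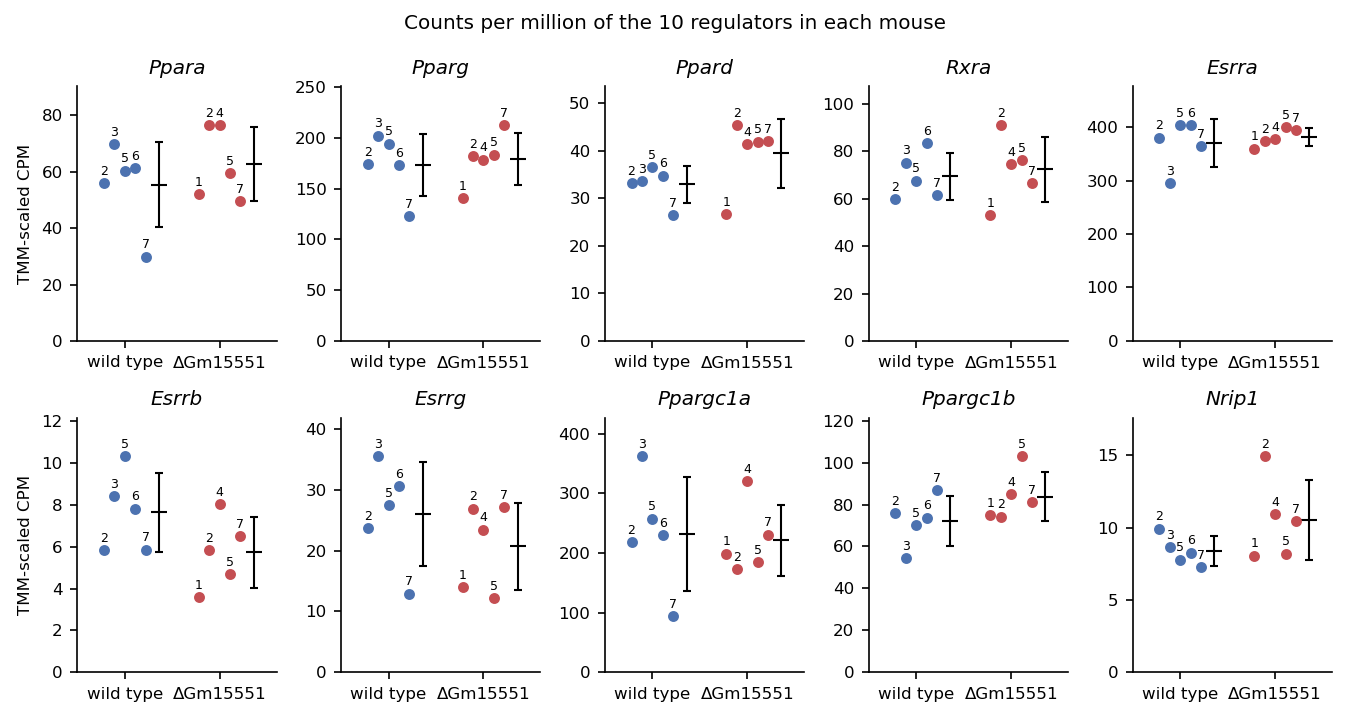
Each point is the level of a regulator in 1 mouse in TMM-scaled CPM, with the replicate number beside it, wild type in blue and ΔGm15551 in red. The black marks are the mean ± SD (n = 5), and the points of both genotypes overlap in all 10 panels.

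The coactivators were described first. Ppargc1a (ENSMUSG00000029167.13, chromosome 5, 51454250 to 51567726, minus strand, GRCm38) encodes PGC-1α, the cold-inducible coactivator of thermogenic and mitochondrial genes. Its level was 199, 173, 320.5, 185 and 231 CPM in ΔGm15551 replicates 1, 2, 4, 5 and 7, and 218, 362, 257, 229.8 and 94.0 CPM in wild type replicates 2, 3, 5, 6 and 7. Both the highest and the lowest mouse were wild type, and all 5 ΔGm15551 mice lay between them. The means were 222 ± 59.4 and 232 ± 95.9 CPM (SD, n = 5 each), with a log2FC of -0.068 (SE 0.28). The sign of this difference turned on single mice, since it was -0.27 without wild type replicate 7, 0.15 without wild type replicate 3 and 0.0073 when ΔGm15551 replicate 2 was left out. Without the 3 mice of the highest muscle shares the log2FC was -0.44 (edgeR, adjusted p 0.969, unadjusted p 0.036), and with a muscle score as a covariate it was -0.022. Skeletal muscle also expresses Ppargc1a. Wild type replicate 7, with the most muscle counts, had the lowest Ppargc1a and ΔGm15551 replicate 4, with the next most, the second highest, and the part of muscle RNA in these levels was not tested.

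The promoter of Ppargc1a is shown beside that of Esrra because these were the regulators with the largest and the smallest spread over all 10 mice. Both stretches are the 250 bases before a start annotated by RefSeq on GRCm38.p6 on the minus strand, written in the direction of transcription, and capitals mark each CG dinucleotide.
Ppargc1a, chr5:51567726-51567975: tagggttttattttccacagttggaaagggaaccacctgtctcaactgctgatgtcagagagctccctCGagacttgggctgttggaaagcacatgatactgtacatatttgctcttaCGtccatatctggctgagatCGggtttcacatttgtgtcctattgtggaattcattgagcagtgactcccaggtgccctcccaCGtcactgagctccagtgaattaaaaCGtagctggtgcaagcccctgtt
Esrra, chr19:6921809-6922058: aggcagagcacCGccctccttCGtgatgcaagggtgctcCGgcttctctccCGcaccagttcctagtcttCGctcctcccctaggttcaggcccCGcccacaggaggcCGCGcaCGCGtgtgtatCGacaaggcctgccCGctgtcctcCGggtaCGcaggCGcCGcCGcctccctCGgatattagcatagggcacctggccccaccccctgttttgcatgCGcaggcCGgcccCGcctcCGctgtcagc

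The Ppargc1a stretch had 5 CG dinucleotides and a GC content of 48.0%, and 33.8% of the 32851 mouse promoters in the table had a lower GC content. The Esrra stretch had 22 CG dinucleotides and a GC content of 68.4%, and 88.4% of the promoters had a lower one. The median promoter had 6 CG dinucleotides and a GC content of 52.4%. Ppara, which spanned 2.57-fold over the 10 mice, had 27 CG dinucleotides and a GC content of 76.4%. The annotated starts of Esrrg, which spanned 2.91-fold, had 9 to 22 CG dinucleotides and a GC content of 41.6% to 63.6%. A link between promoter composition and spread was not tested. The 32851 promoters leave out chromosome 18, where Ppargc1b lies. Promoters were at hand for 9 of the 10 regulators, 17 in all, since several genes have more than 1 annotated start. The cAMP response element TGACGTCA was found on neither strand in any of them from 250 bases before to 50 after the start, and in 1.79% of all promoters. Its shorter form TGACG was found, on either strand, in 4 of the 17 promoters (23.5%, belonging to Ppargc1a, Ppara, Ppard and Esrrb), a share close to the 20.8% of all promoters. In Ppargc1a it reads CGTCA, begins 49 bases before the start at chr5:51567770-51567774, and holds the fourth CG in the stretch printed above. The site of the estrogen-related receptors, TNAAGGTCA, was found in none of the 17 and in 1.28% of all promoters. The site of the NR4A receptors, AAAGGTCA, which shares the letters AAGGTCA with it, was found in 1 of the 17, beginning 50 bases before the second annotated start of Rxra, and in 1.51% of all promoters. No promoter of a regulator held the paired site of the PPARs (AGGTCA written in 2 copies 1 base apart), found in 0.0396% of all promoters. These are matches of letters, and no binding was measured.

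Ppargc1b encodes PGC-1β, the coactivator of basal mitochondrial genes. It lies on the minus strand of chromosome 18 (ENSMUSG00000033871.14, 61298136 to 61400431). Its level was 74.9, 74.2, 84.9, 103 and 81.2 CPM in ΔGm15551 replicates 1, 2, 4, 5 and 7, and 75.9, 54.4, 70.0, 73.8 and 86.8 CPM in wild type replicates 2, 3, 5, 6 and 7. All 5 ΔGm15551 mice lay above the wild type median, but only ΔGm15551 replicate 5 lay above every wild type mouse. The means were 83.6 ± 11.7 and 72.2 ± 11.7 CPM (SD, n = 5 each), with a log2FC of 0.21 (SE 0.14) and an unadjusted p of 0.139 (edgeR). It was 0.13 when either ΔGm15551 replicate 5, the highest mouse, or wild type replicate 3, the lowest, was left out. The wild type mouse with the most Ppargc1a, replicate 3, had the least Ppargc1b, and the one with the least Ppargc1a, replicate 7, had the most Ppargc1b of its group. The r of log2 CPM of the pair was -0.89 within wild type and 0.053 within ΔGm15551, each over 5 mice and given as a description, and the difference was not tested. Over all 10 mice r was -0.53 (permutation p = 0.114, adjusted over 45 pairs 0.321) and rho -0.49 (p = 0.155, adjusted 0.530), and r was -0.12 without wild type replicates 3 and 7, the 2 mice farthest in Ppargc1a.

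Among the PPARs, Pparg (ENSMUSG00000000440.12, chromosome 6, 115360951 to 115490399, plus strand), the receptor that makes and maintains fat cells, was the most abundant. It measured 141, 182, 178, 183 and 213 CPM in ΔGm15551 replicates 1, 2, 4, 5 and 7, and 174, 202, 194, 173 and 123 CPM in wild type replicates 2, 3, 5, 6 and 7. The groups overlapped throughout, with wild type replicate 7 and ΔGm15551 replicate 1 the lowest. The means were 179 ± 25.7 and 173 ± 30.8 CPM (SD, n = 5 each), with a log2FC of 0.049 (SE 0.15), which turned to -0.052 when wild type replicate 7 was left out and to -0.020 when ΔGm15551 replicate 7 was.

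Ppara (ENSMUSG00000022383.13, chromosome 15, 85734983 to 85802819, plus strand) encodes the receptor of fatty acid oxidation. Its level was 52.0, 76.7, 76.5, 59.4 and 49.5 CPM in ΔGm15551 replicates 1, 2, 4, 5 and 7, and 56.1, 69.8, 60.4, 61.3 and 29.9 CPM in wild type replicates 2, 3, 5, 6 and 7. Wild type replicate 7 stood below all other mice, and the other 9 lay between 49.5 and 76.7 CPM. The means were 62.8 ± 13.1 and 55.5 ± 15.2 CPM (SD, n = 5 each), with a log2FC of 0.18 (SE 0.20) that came down to 0.022 without wild type replicate 7, to 0.095 without ΔGm15551 replicate 2 and to 0.097 without ΔGm15551 replicate 4, and rose to 0.27 when wild type replicate 3 was left out.

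Ppard (ENSMUSG00000002250.16, chromosome 17, 28232700 to 28301474, plus strand), the broadly expressed receptor of oxidative metabolism, was the regulator in which most ΔGm15551 mice lay above all wild type mice. Its level was 26.7, 45.4, 41.3, 41.9 and 41.9 CPM in ΔGm15551 replicates 1, 2, 4, 5 and 7, and 33.2, 33.6, 36.5, 34.8 and 26.4 CPM in wild type replicates 2, 3, 5, 6 and 7. Thus 4 of the 5 ΔGm15551 mice were above every wild type mouse, and only replicate 1 fell back among the lowest. The means were 39.4 ± 7.30 and 32.9 ± 3.85 CPM (SD, n = 5 each), with a log2FC of 0.26 (SE 0.14), a 95% confidence interval of -0.074 to 0.56 and an unadjusted p of 0.091 (edgeR). Without ΔGm15551 replicate 1 the log2FC was 0.37 (edgeR, adjusted p 0.999, unadjusted p 0.0048). Without wild type replicate 7, the lowest of its group, it was 0.19 with an unadjusted p of 0.193.

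Rxra (ENSMUSG00000015846.15, chromosome 2, 27676440 to 27762957, plus strand) encodes the retinoid X receptor with which the PPARs pair on DNA. It measured 53.2, 91.2, 74.6, 76.2 and 66.6 CPM in ΔGm15551 replicates 1, 2, 4, 5 and 7, and 59.7, 75.2, 67.6, 83.6 and 61.6 CPM in wild type replicates 2, 3, 5, 6 and 7. The lowest and the highest mouse were both ΔGm15551, and the group means were 72.3 ± 13.9 and 69.5 ± 9.90 CPM (SD, n = 5 each). The log2FC of 0.056 (SE 0.15) turned to -0.042 without ΔGm15551 replicate 2.

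Among the estrogen-related receptors, Esrra (ENSMUSG00000024955.15, chromosome 19, 6910977 to 6921813, minus strand), the main partner of PGC-1α at mitochondrial genes, was the steadiest of the 10 regulators. Its level was 360.0, 374, 377, 400.2 and 395 CPM in ΔGm15551 replicates 1, 2, 4, 5 and 7, and 380.3, 295, 404, 403 and 365 CPM in wild type replicates 2, 3, 5, 6 and 7. Apart from wild type replicate 3, all mice lay between 360.0 and 404 CPM. The means were 381 ± 16.3 and 369 ± 44.9 CPM (SD, n = 5 each), with a log2FC of 0.045 (SE 0.11) that turned to -0.026 without wild type replicate 3. Exons of Esrra overlap those of Trmt112 on the opposite strand and of Mir6990 on the same strand, and 2.31% of its 31-base words also occur in other annotated genes, the largest share among the 10. Since the library kit named in the labels does not mark the strand, reads from such an overlap cannot be assigned to a gene by strand.

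Esrrg (ENSMUSG00000026610.13, chromosome 1, 187608791 to 188214885, plus strand), a receptor of highly oxidative tissues such as heart, slow muscle and brown fat, was at a far lower level. It measured 13.9, 26.9, 23.4, 12.2 and 27.1 CPM in ΔGm15551 replicates 1, 2, 4, 5 and 7, and 23.7, 35.5, 27.5, 30.6 and 12.9 CPM in wild type replicates 2, 3, 5, 6 and 7. The mice fell on both sides of a gap, with 3 mice between 12.2 and 13.9 CPM, of which 2 were ΔGm15551 and 1 was wild type, and the other 7 between 23.4 and 35.5 CPM. The means were 20.7 ± 7.16 and 26.0 ± 8.49 CPM (SD, n = 5 each), with a log2FC of -0.33 (SE 0.28) and an unadjusted p of 0.249 (edgeR). It came to -0.50 when wild type replicate 7 was left out, and to -0.22, -0.20 and -0.20 when ΔGm15551 replicate 1, ΔGm15551 replicate 5 or wild type replicate 3 was. Its direction turned, to 0.040, when only replicates 2, 5 and 7 of each genotype were compared. The summed level of the 5 endothelial markers, all counted in every mouse, was 1287, 1096 and 1161 CPM in the 3 mice with little Esrrg and 659 to 1073 CPM in the other 7. Its range was 753 to 1287 CPM in ΔGm15551 and 659 to 1161 CPM in wild type, and its part in the level of Esrrg was not tested.

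Esrrb (ENSMUSG00000021255.17, chromosome 12, 86361117 to 86521628, plus strand), best known from pluripotent cells, had the fewest counts of the 10, with 49 to 144 per mouse. Its level was 3.60, 5.83, 8.04, 4.68 and 6.49 CPM in ΔGm15551 replicates 1, 2, 4, 5 and 7, and 5.82, 8.39, 10.3, 7.81 and 5.85 CPM in wild type replicates 2, 3, 5, 6 and 7. ΔGm15551 replicates 1 and 5 lay below every wild type mouse, and the other 3 within the wild type range. The means were 5.72 ± 1.70 and 7.64 ± 1.88 CPM (SD, n = 5 each). Its log2FC was the largest in size of the 10, at -0.42 (SE 0.22). The 95% confidence interval was -0.94 to 0.028 and the unadjusted p 0.084 (edgeR). With each mouse left out in turn, the log2FC ranged from -0.57 to -0.29.

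Nrip1 (ENSMUSG00000048490.14, chromosome 16, 76287400 to 76373827, minus strand), the corepressor of oxidative genes in fat, measured 8.07, 14.9, 10.9, 8.21 and 10.4 CPM in ΔGm15551 replicates 1, 2, 4, 5 and 7. In wild type replicates 2, 3, 5, 6 and 7 it measured 9.94, 8.65, 7.80, 8.27 and 7.29 CPM. ΔGm15551 replicates 2, 4 and 7 lay above all wild type mice and the other 2 among them. The means were 10.5 ± 2.78 and 8.39 ± 1.01 CPM (SD, n = 5 each), with a log2FC of 0.33 (SE 0.17), a 95% confidence interval of -0.077 to 0.67 and an unadjusted p of 0.080 (edgeR). Without ΔGm15551 replicate 2, the highest mouse, the log2FC was 0.17 with an unadjusted p of 0.287. Without ΔGm15551 replicate 1, the lowest of its group, it was 0.41 (edgeR, adjusted p 0.999, unadjusted p 0.033).

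To set the regulators against each other, the CPM of each was divided by the length of its merged exons in kilobases. By this level per length, Esrra came first at 85.6 ± 7.39 CPM per kb (SD, n = 10 mice), followed by Pparg at 59.7 ± 9.12 and Ppargc1a at 34.4 ± 11.4 CPM per kb. Ppargc1b (19.5 ± 3.15 CPM per kb), Ppara (15.4 ± 3.62 CPM per kb) and Rxra (13.0 ± 2.10 CPM per kb) made up the middle of the order. Below them were Ppard at 4.81 ± 0.865, Esrrg at 3.77 ± 1.28, Esrrb at 1.10 ± 0.326 and Nrip1 at 0.825 ± 0.198 CPM per kb. Levels of neighbours in this order were compared within the same mouse with an exact sign-flip permutation test (two-sided, 9 comparisons, n = 10). The order itself was read from the means of these 10 mice, so the p-values are no independent test of it. Rxra was above Ppard 2.71-fold, and Esrrg above Esrrb 3.34-fold, each in 10 of 10 mice (adjusted p = 0.00586 for each, exact permutation test, in which the smallest unadjusted p is 0.00195). Ppargc1b and Ppara differed 1.29-fold (8 of 10 mice, adjusted p = 0.0527), Ppara and Rxra 1.17-fold (9 of 10 mice, adjusted p = 0.0547) and Esrrb and Nrip1 1.31-fold (8 of 10 mice, adjusted p = 0.0527), so these neighbours were not told apart by the exact permutation test. The other 4 pairs of neighbours had adjusted p of 0.00586 to 0.0352 in the same test, the smallest for Pparg over Ppargc1a (1.81-fold, 10 of 10 mice) and the largest for Ppard over Esrrg (1.34-fold, 8 of 10 mice). These folds depend on the length used, an uncertainty that the p-values over mice do not cover. With the longest transcript and with the mean over protein-coding transcripts as the length, Rxra was above Ppard 1.495-fold and 1.40-fold, Esrrg above Esrrb 2.75-fold and 2.47-fold, and Ppard above Esrrg 2.33-fold and 3.58-fold, each in 10 of 10 mice. The order was the same with the longest transcript. With the mean over protein-coding transcripts, Rxra moved up to the fourth place, above Ppara in 10 of 10 mice, and Ppard at 20.1 CPM per kb came close to Ppara (22.2 CPM per kb, above it in 7 of 10 mice) and Ppargc1b (22.3 CPM per kb). Nrip1 then stood above Esrrb in 7 of 10 mice, which the exact permutation test did not tell apart (adjusted p = 0.143).

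**Figure D3:**
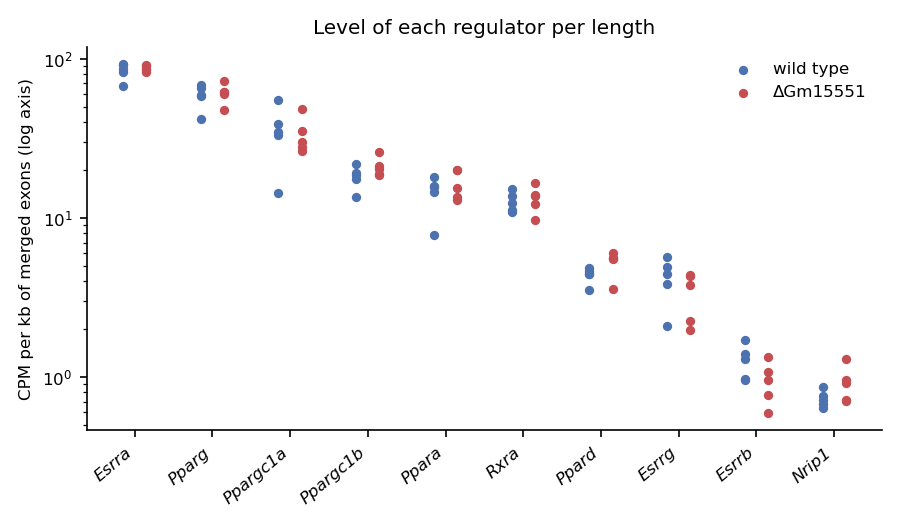
Each point is 1 mouse, wild type in blue and ΔGm15551 in red, and the log axis gives CPM per kb of merged exons. The regulators span about 2 orders of magnitude, from a mean of 85.6 for Esrra to 0.825 for Nrip1, and the genotypes overlap for each of them.

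Within the families, the same levels per length were read as shares. Pparg made up 73.7 ± 3.82% of the PPAR level in ΔGm15551 mice and 75.9 ± 1.72% of that in wild type mice (SD, n = 5 each), with Ppara at 19.98 ± 3.68% and 18.4 ± 2.19% and Ppard at 6.33 ± 0.548% and 5.73 ± 0.618%. These shares hold for merged exons, and with the mean over protein-coding transcripts as the length Ppara and Ppard were close, at 13.8 ± 2.65% and 12.6 ± 1.06% in ΔGm15551 mice and at 12.6 ± 1.64% and 11.4 ± 1.09% in wild type mice. Esrra made up 95.3 ± 1.43% of the level of the estrogen-related receptors in ΔGm15551 and 93.8 ± 2.20% in wild type. The shares of the PGC-1 pair were less steady, and Ppargc1a made up 61.0 ± 6.43% in ΔGm15551 and 63.5 ± 14.8% in wild type (73.5 ± 5.28% and 74.9 ± 12.6% with the protein-coding transcripts). The ratio of Ppargc1a to Ppargc1b per length was 1.61, 1.41, 2.28, 1.09 and 1.72 in ΔGm15551 replicates 1, 2, 4, 5 and 7, and 1.74, 4.03, 2.23, 1.89 and 0.655 in wild type replicates 2, 3, 5, 6 and 7. Wild type replicate 7 was thus the only mouse with more Ppargc1b than Ppargc1a per length (with the mean over protein-coding transcripts its ratio was 1.17), and wild type replicate 3 had by far the highest ratio.

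The regulators differed in how much they varied between mice. Over all 10 mice, Ppargc1a spanned 3.85-fold from the lowest to the highest, Esrrg 2.91-fold, Esrrb 2.87-fold and Ppara 2.57-fold. Within the wild type mice Ppargc1a spanned 3.85-fold and Esrrg 2.74-fold, and within the ΔGm15551 mice 1.85-fold and 2.23-fold. Wild type replicate 7 decides part of this, since without it the span came to 2.09-fold for Ppargc1a and 1.55-fold for Ppara. By the SD of log2 CPM within groups, only 8.97% of the genes tested varied more than Ppargc1a and 9.69% more than Esrrg. Without wild type replicate 7 these shares were 28.0% and 15.2%, so that Esrrg, and not Ppargc1a, then had the largest within-group SD of the 10. The lowest span over all 10 mice was that of Esrra at 1.37-fold, and 89.1% of the genes varied more. Pparg, Ppard, Rxra, Nrip1 and Ppargc1b lay between them, with spans over all 10 mice of 1.71-fold (Rxra) to 2.05-fold (Nrip1). Neither the spans nor the SDs were corrected for count depth. Esrrb had 49 to 144 counts per mouse and Esrra 3442 to 6194.

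**Figure D4:**
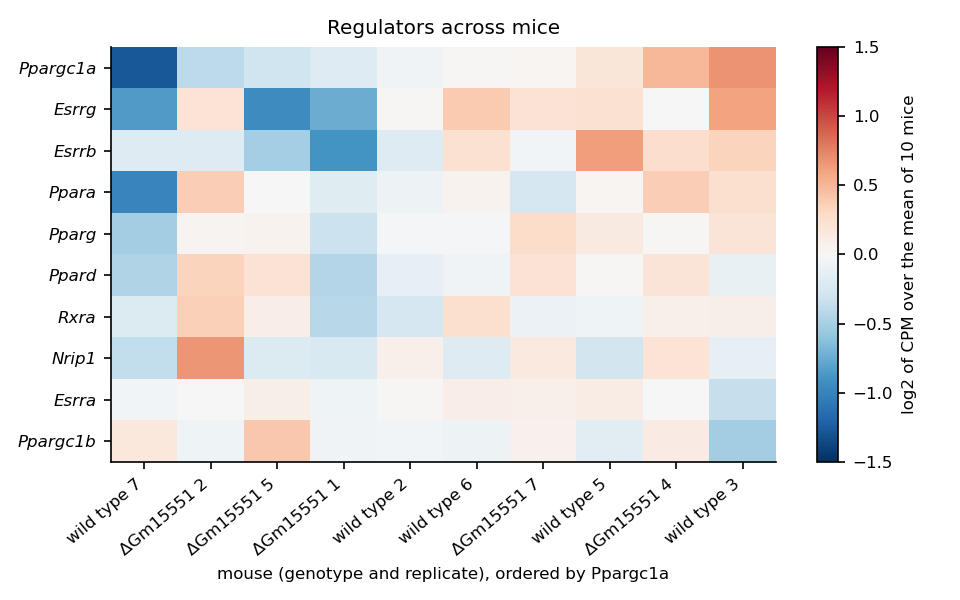
Colours give the log2 of each regulator's CPM over its mean in the 10 mice, red above and blue below, with the mice ordered from the lowest (wild type replicate 7) to the highest Ppargc1a (wild type replicate 3). Both genotypes are spread along the order, and wild type replicate 7 is blue in 9 of the 10 rows, Ppargc1b being the exception.

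Wild type replicate 7 had the lowest level of all mice in Ppargc1a, Ppara, Pparg, Ppard and Nrip1. It was also the mouse with the lowest depth and the highest muscle share, and the part of these in its levels was not tested. Whether the regulators rose and fell together was asked with Pearson's r and Spearman's rho of log2 CPM over the 10 mice, for all 45 pairs, with permutation tests. Of the 45 coefficients 34 were positive, and 0 pairs passed a Benjamini-Hochberg adjusted p of 0.05 by either measure. Described here are the 5 pairs with the largest r in size, and 2 further pairs whose rho was larger than that of most of these. Pparg and Ppard had an r of 0.77 (permutation p = 0.00949, adjusted 0.130) and a rho of 0.66 (p = 0.0433, adjusted 0.282), and r came down to 0.11 without the 2 mice farthest in Pparg, wild type replicate 7 and ΔGm15551 replicate 1. Pparg and Ppargc1a had an r of 0.74 (permutation p = 0.0182, adjusted 0.130) and a rho of 0.56 (p = 0.0951, adjusted 0.428), with 0.31 without the same 2 mice. The first relation thus rests on those 2 mice. The second rests on wild type replicate 7, since r was 0.38 without that mouse alone. Ppara and Ppargc1a had an r of 0.77 (permutation p = 0.0205, adjusted 0.130) and a rho of 0.37 (p = 0.293, adjusted 0.604). Their r was 0.33 without wild type replicate 7, but 0.76 when ΔGm15551 replicate 2, the other of the 2 mice farthest in Ppara, was left out as well.

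The pair with the smallest p was Ppargc1b and Esrrg, with coefficients below 0. Their r was -0.73 (permutation p = 0.00776, adjusted 0.130) and their rho -0.87 (p = 0.00192, adjusted 0.0864). Their r stayed between -0.83 and -0.60 when any 1 mouse was left out, and was -0.46 without the 2 mice farthest in Ppargc1b. It was -0.52 within ΔGm15551 and -0.83 within wild type, each over 5 mice and given as a description. Esrrb and Esrrg had an r of 0.74 (permutation p = 0.0138, adjusted 0.130) and a rho of 0.71 (p = 0.0269, adjusted 0.282), and r was 0.75 without the 2 mice farthest in Esrrb. Ppara and Rxra had a rho of 0.76 (permutation p = 0.0145, adjusted 0.266) and an r of 0.61 (p = 0.0578, adjusted 0.217), with an r of 0.60 without the 2 mice farthest in Ppara. Ppargc1a and Esrrb had a rho of 0.75 (permutation p = 0.0177, adjusted 0.266) and an r of 0.51 (p = 0.131, adjusted 0.326), with an r of 0.68 without the 2 mice farthest in Ppargc1a. Within the 7 mice of the lower ID series, 0 of the 45 pairs passed the adjusted threshold, and the higher series had only 3 mice, too few for a coefficient.

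The partners and targets of these regulators were then counted by lists of known genes. Of 18 coregulators and partners (such as Rxrb, Ncoa1, Ncor1, Med1, Sirt1 and Prdm16), 18 were tested and 0 were called in either direction, with a median log2FC of 0.011. The smallest p was that of Lpin1, a lipin that also acts as a coactivator with PGC-1α. Lpin1 had 549.7 ± 132 CPM in ΔGm15551 mice against 697 ± 112 CPM in their wild type litter mates (SD, n = 5 each), a log2FC of -0.34 (SE 0.17, edgeR, adjusted p 0.99981, unadjusted p 0.0698). Next came Hdac3, the deacetylase of the NCoR complex, with a log2FC of 0.13.

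Of 20 target genes of PPARα, most of them enzymes of fatty acid oxidation, 18 were tested and 0 were called, with a median log2FC of 0.026, 11 values above 0 and 7 below. Creb3l3 and Vnn1 fell under the filter. Angptl4, a secreted inhibitor of lipoprotein lipase, was the only gene of the 5 lists of partners, targets and cAMP genes with an unadjusted p under 0.05, which is 1 of 83 tested (1.2%) against 1.59% of all genes. It measured 139 ± 24.9 CPM in ΔGm15551 mice against 102 ± 18.6 CPM in their wild type litter mates (SD, n = 5 each), and 4 of the 5 ΔGm15551 mice lay above every wild type mouse. Its log2FC was 0.45 (SE 0.16), with a 95% confidence interval of 0.12 to 0.79 (edgeR, adjusted p 0.99981, unadjusted p 0.0116). Fgf21, a hormone that brown fat releases in the cold, had the next smallest p among these targets, with 1.61 ± 0.214 CPM in ΔGm15551 mice against 1.22 ± 0.308 CPM and a log2FC of 0.39 (unadjusted p 0.128, edgeR), or of 0.26 without wild type replicate 2.

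Of 16 target genes of PPARγ, 15 were tested and 0 were called, with a median log2FC of 0.084, 11 values above 0 and 4 below. Adipoq, which encodes adiponectin, had a log2FC of 0.20 (unadjusted p 0.109), which was 0.13 without ΔGm15551 replicate 5, and Lpl, the lipase that takes up lipoprotein fat, one of -0.20 (unadjusted p 0.137, edgeR). Of 20 target genes of the estrogen-related receptors and PGC-1, which hold enzymes of the citric acid cycle, respiratory chain subunits and factors of mitochondrial DNA, 20 were tested and 0 were called. Their median log2FC was -0.0040, with 9 values above 0 and 11 below. The full range was narrow, from -0.24 for Gabpa, a subunit of the nuclear respiratory factor GABP, to 0.14 for Vegfa. Gabpa was at -0.11 without wild type replicate 3, and Slc25a4, the mitochondrial ADP/ATP carrier, at -0.11 with all mice, at -0.063 without wild type replicate 5 and at -0.18 without wild type replicate 3. Of 12 genes that cAMP raises within hours, 12 were tested and 0 were called, with a median log2FC of 0.038, 6 values above 0 and 6 below. Without the 3 mice of high muscle share their median was -0.15. Irf4, the cold-induced factor that works with PGC-1α, showed a log2FC of 0.60 (SE 0.33, edgeR unadjusted p 0.0963), which came down to 0.27 without ΔGm15551 replicate 5. Fosl2, a subunit of the AP-1 factor, showed one of 0.17 (edgeR unadjusted p 0.167) and of 0.10 without ΔGm15551 replicate 7.

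Finally, the genes whose pattern across mice was most like that of Ppargc1a were sought among the 9809 genes that averaged 5 CPM or more, by Pearson's r over 10 mice after removal of the group means, as a description with no test. The 5 highest were Polr3b (r = 0.98), Smad3 (0.97), Bloc1s5 (0.96), Fam98b (0.96) and Hoxc5 (0.95). The 3 lowest were Cyb5r1 (-0.95), Cdc34 (-0.95) and AU020206 (-0.94). Smad3, a transcription factor of TGF-β signalling, ran from 21.3 to 54.4 CPM. Without wild type replicate 7, and with the group means taken anew, the coefficient was 0.97 for Polr3b, a subunit of RNA polymerase III, and 0.92 for Smad3. In all, 319 genes had an r above 0.8. Of the other regulators, Ppara stood highest at place 346 (r = 0.79), followed by Pparg at 680 (r = 0.74) and Esrrg at 825 (r = 0.73), and Ppargc1b was at place 8495 (r = -0.62). Without wild type replicate 7 these coefficients were 0.36 for Ppara, 0.34 for Pparg, 0.43 for Esrrg and -0.41 for Ppargc1b.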

How the data were processed

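PolyA RNA was measured in iBAT of 10 mice, each labelled as a separate animal. Per the methods, the authors trimmed low-quality reads (cutadapt) and assigned the rest to transcripts of GENCODE M22 on GRCm38, with or without RNAcentral, by salmon; versions and the use of strand are not given in the sources used here. The deposited values were estimated counts (expected counts) per gene, whole numbers with no scaling, 1 column per mouse. The test was that of edgeR 4.0.16 under R 4.3.3 (filterByExpr, minimum count 10 and minimum total 15, TMM, robust glmQLFit, glmQLFTest, genotype as the only term), with Benjamini-Hochberg adjustment across 13732 genes. The study names DESeq2 for its own tests, which was run as an alternative. SEs were derived from the F statistic, 95% confidence intervals come from limma 3.58.1 (voom), and log2 CPM had a prior count of 2. Positions and lengths were taken from GENCODE M21 on GRCm38 and promoters from RefSeq. Relations used 100000 permutations. The fit was tested on simulated counts. No pair of libraries within a group agreed within sampling noise.

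The 10 regulators and the lists were chosen with earlier results of these data known. Genes named were Gm15551, the 10 regulators, in each list the 2 with the smallest p and any with an adjusted p under 0.05, and for the most variable regulator, Ppargc1a, the 5 genes with the highest and the 3 with the lowest r. Vegfa, as the end of a range, Trmt112 and Mir6990, as overlapping genes, were named after their values were seen. Further members of the partner list were named as examples, and Creb3l3 and Vnn1 as genes under the filter. Alternatives were other size factors, filters and tests, omission of any 1 mouse, of the mice of the higher ID series or of high muscle share (over 0.05% of counts), a block on the replicate number, a muscle covariate, other lengths and another prior count. The test of neighbouring levels per length, with 3 lengths, was chosen after the levels were seen. Removal of group means, the lower ID series and the mice of low muscle share were added for the relations after seeing the data.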

Additional observations from a re-analysis of the deposited data

Results flagged for a closer look

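In each genotype the level of each regulator, and the ratios of Ppargc1a to Ppargc1b and of Ppara to Pparg, were searched for a mouse far from the other 4 by Dixon's ratio, 24 groups of 5 in all, of which chance alone gives about 1.2. In 1 group such a mouse was found. Ppard in ΔGm15551 replicate 1 was at 26.7 CPM, while the other 4 ΔGm15551 mice lay between 41.3 and 45.4 CPM (Dixon's ratio 0.781, critical value 0.71). The same mouse was the lowest of its group in Pparg, Rxra, Esrra, Esrrb and Nrip1, and its muscle share was 0.0743%; the part of either in its Ppard level was not tested.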

How the results depend on the processing

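The count of genes called by genotype was 0 under all 21 alternatives. Genes at an unadjusted p under 0.05 ran from 168 of 14016 tested (without wild type replicate 3) to 869 of 30984 (no filter). They numbered 228 of 13732 in DESeq2's Wald test and 219 of 13732 in the main fit. Without the 3 mice of high muscle share they numbered 562 of 13907. No regulator had an adjusted p below 0.835 in any alternative. The log2FC of Ppard, Ppargc1b, Esrrb and Nrip1 kept their sign in all 21. When the 3 wild type mice of the higher ID series were left out, Ppara was at -0.0014 and Pparg at -0.067, Ppargc1a at -0.39, Esrrg at -0.51, Nrip1 at 0.18, Esrra at 0.18, Rxra at 0.10 and Ppargc1b at 0.36. When the 3 mice of high muscle share were left out, Ppara was at 0.00037, Rxra at 0.12, Esrra at 0.072, Ppargc1b at 0.33 and Ppargc1a at -0.44, while with the muscle covariate Ppargc1a was at -0.022 and Ppara at 0.21. Ppargc1a was at 0.027 in limma-voom. With each mouse left out in turn, Ppara ranged from 0.022 to 0.27, Ppargc1b from 0.13 to 0.29, Esrrg from -0.50 to -0.20, Nrip1 from 0.17 to 0.41, Pparg from -0.052 to 0.13, Ppargc1a from -0.27 to 0.15, Esrra from -0.026 to 0.079 and Rxra from -0.042 to 0.15. The cause of these changes was not tested.

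The replicate numbers 2, 5 and 7 occur in both genotypes. The deviations of same-numbered mice correlated at -0.065, 0.054 and -0.39, and 1 of these 6 mice correlated best with its own number. With only 3 shared numbers, this check cannot tell whether same-numbered mice share more than the number. With the replicate block in the 6 mice, 0 genes were called and 397 had an unadjusted p under 0.05, against 552 in the same 6 mice without it. Ppargc1a was then at 0.14 and Esrrg at 0.026 with the block, and at 0.044 and 0.040 without. In these fits Pparg was at 0.25 with the block and 0.23 without, Rxra at 0.30 and 0.31, Ppara at 0.38 and 0.34, Ppard at 0.44 and 0.42, Ppargc1b at 0.14 and 0.15, and Esrra at 0.024 and 0.023. No list gained a called gene without the mice of high muscle share, and 0 of 45 relations passed under any alternative. All 10 regulators passed the filter, so the comparison planned for those under it was not run. Depth gave Esrrb 49 to 144 and Nrip1 71 to 210 counts per mouse, the fewest of the 10, while the largest SEs were those of Ppargc1a (0.28) and Esrrg (0.28).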
